A study of Mus musculus with 12 samples.

Results

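Ceramide and sphingomyelin are built by a short chain of membrane enzymes, and 10 mouse genes for these enzymes are described here in embryonic fibroblasts before and after adipogenic differentiation, with and without the DGAT triglyceride enzymes. The genes were selected by symbol: Sptlc1, Sptlc2, Sptlc3, Cers2, Cers4, Cers5, Cers6, Degs1, Sgms1 and Sgms2. The rule sets no threshold on measured values, but the list was chosen with earlier results of these data known. All 10 were found in the probe annotation of the array, out of 19938 genes with a probe set assigned to 1 gene only. Each of the 10 had a single such probe set, so no choice between probe sets was needed.

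Total RNA came from mouse embryonic fibroblasts (MEFs), cells cultured from dissociated E14 embryos of the strain C57BL6 in DMEM with serum. The 12 samples formed 4 groups of 3, since each genotype, WT and D1D2KO, was profiled both undifferentiated and differentiated. The label D1D2KO is read here as loss of DGAT1 and DGAT2, the enzymes that make triglyceride from diacylglycerol and that the series is about. The labels give neither the alleles nor how the WT and D1D2KO embryos were related. Differentiated cells had been held past confluence and given 1 µM dexamethasone, 500 µM isobutylmethylxanthine, 5 µg/ml insulin and 15 µM troglitazone, then insulin with troglitazone, then plain medium. Undifferentiated cells are labelled fibroblast and received none of these agents, and the labels do not say whether they were harvested at the same confluence or age in culture, so drug exposure, time past confluence and differentiation cannot be told apart. The replicates are called biological, but which embryo or culture each came from is not given. In the main fit a p-value is set against the spread among cultures or preparations within groups, estimated over all 4 groups together. That spread may be technical.

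Synthesis begins on the endoplasmic reticulum when serine palmitoyltransferase joins serine to a fatty acyl-CoA. The sphingoid base is then given a fatty acid by a ceramide synthase, whose isoform sets the length of that chain, and a desaturase adds the double bond that turns dihydroceramide into ceramide. Sphingomyelin synthases move phosphocholine from phosphatidylcholine onto ceramide and release diacylglycerol, the lipid that DGAT enzymes esterify. Ceramide in adipose tissue has been studied for its links to insulin action, and sphingomyelin is a main lipid of the plasma membrane and caveolae of fat cells.

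All values below are log2 array signals as deposited, 1 per sample, and a change is the difference of group means on that scale. Signals of different genes are not compared, because probe sets differ in brightness. A change is called where limma's moderated test across all 19938 genes gave a Benjamini-Hochberg adjusted p under 0.05. The precision is limited by 3 arrays per group.

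Dgat1 and Dgat2 followed the genotype labels. Dgat1 lay between 5.56 and 5.66 in D1D2KO undifferentiated cells against 6.93 to 6.98 in WT, and between 7.75 and 8.26 against 9.33 to 9.53 after differentiation. Dgat2 lay between 5.44 and 5.51 against 5.94 to 5.98, and between 8.37 and 8.66 against 9.86 to 10.5. Signal therefore remained in D1D2KO cells at 38.2% (Dgat1) and 31.4% (Dgat2) of WT after differentiation. Before it, the shares were 39.4% (Dgat1) and 72.0% (Dgat2). The position of the probes relative to the deleted sequence is not given. The differentiated label was matched by its markers: 11 of 11 adipocyte genes rose in each genotype, with a median change of 3.97 in WT and 4.20 in D1D2KO. Their mean signal lay between 6.07 and 6.28 over the undifferentiated samples, between 10.1 and 10.3 in WT differentiated and between 10.5 and 10.7 in D1D2KO differentiated samples. Fibroblast and matrix genes fell in 9 of 11 cases in WT and in 10 of 11 in D1D2KO, and macrophage genes in 8 of 9 cases in each. Endothelial (2 of 5) and epithelial (1 of 4) genes fell in each genotype, and neural genes fell in 4 of 6 cases in WT and 5 of 6 in D1D2KO. Of all genes, 19.4% fell in WT and 21.2% in D1D2KO. In WT and D1D2KO the median change was -0.03 and -0.04 for endothelial genes and -0.0044 and -0.10 for epithelial genes. Muscle genes fell in 3 of 7 cases in WT (median -0.29) and 5 of 7 in D1D2KO (median -0.84). The macrophage list had a mean signal of 9.36 to 9.54 in undifferentiated and 8.21 to 8.53 in differentiated samples. In bulk samples, fewer cells of a type and less RNA per cell cannot be told apart.

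The promoters of Sptlc2, Sptlc3 and Cers6 are shown because these 3 genes passed the test with differentiation in both genotypes, Sptlc3 upward and the other two downward. Each window runs from 250 bases before to 50 bases after the annotated start site and comes from RefSeq on GRCm38.p6, 5′ to 3′ on the strand of the gene. Sptlc2 lies at chr12:87388306-87388605 on the minus strand, Sptlc3 at chr2:139493663-139493962 on the plus strand and Cers6 at chr2:68861191-68861490 on the plus strand. Capitals mark matches, on either strand, to the NF-Y box CCAAT, the GC box GGGCGG or the E-box CACGTG, and the Sptlc3 window has none.
Sptlc2: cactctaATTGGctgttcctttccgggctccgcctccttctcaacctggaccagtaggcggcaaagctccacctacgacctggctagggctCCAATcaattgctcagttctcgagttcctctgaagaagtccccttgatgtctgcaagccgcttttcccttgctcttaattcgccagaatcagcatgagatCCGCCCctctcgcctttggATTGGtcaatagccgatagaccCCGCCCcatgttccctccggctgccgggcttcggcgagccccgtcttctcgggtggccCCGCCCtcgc
Sptlc3: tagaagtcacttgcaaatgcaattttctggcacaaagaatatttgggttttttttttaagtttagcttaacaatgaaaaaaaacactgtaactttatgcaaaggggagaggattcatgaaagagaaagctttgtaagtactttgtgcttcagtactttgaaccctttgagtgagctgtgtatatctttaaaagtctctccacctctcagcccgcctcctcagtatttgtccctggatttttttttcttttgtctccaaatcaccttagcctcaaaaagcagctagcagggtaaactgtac
Cers6: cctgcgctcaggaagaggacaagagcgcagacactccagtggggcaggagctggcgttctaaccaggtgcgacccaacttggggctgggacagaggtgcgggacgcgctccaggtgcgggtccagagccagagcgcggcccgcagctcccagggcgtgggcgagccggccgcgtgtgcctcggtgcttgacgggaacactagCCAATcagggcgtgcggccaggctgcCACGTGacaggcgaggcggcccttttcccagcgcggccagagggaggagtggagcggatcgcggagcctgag

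The windows differ in composition. GC content is 59.3% for Sptlc2, 70.0% for Cers6 and 37.3% for Sptlc3, against a median of 52.7% over all 32851 annotated windows, whose quartiles are 45.7% and 61.7%. The Sptlc2 window holds 3 matches to CCAAT, the box bound by NF-Y, beginning 243, 159 and 40 bases before the start site, and 3 matches to GGGCGG, the GC box bound by Sp factors. The Cers6 window holds 1 match to CCAAT, 48 bases before the start site, and 1 to CACGTG, the palindromic E-box, 22 bases before it. The Sptlc3 window holds no match to these motifs, nor to the TATA box TATAAA, the nuclear receptor half-site AGGTCA or the SREBP element TCACNCCAC. Of all windows, 37.4% hold CCAAT, 35.7% GGGCGG, 7.15% CACGTG, 13.6% TATAAA, 16.3% AGGTCA and 1.24% TCACNCCAC. All 10 genes matched the promoter table, with 19 windows in all. Of these 19 windows, 10 held GGGCGG, 7 CCAAT and 4 CACGTG, the counts to read beside the shares of all windows. By gene, at least 1 window held GGGCGG for 7 genes, CCAAT for 6 and CACGTG for 4 (Cers2, Cers6, Degs1 and Sgms2). Genes with several windows, such as Sgms2 with 6 and Sgms1 with 4, have more room for a match. No matches overlap one another in the 3 windows printed, and a match describes the sequence only.

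Differentiation moved the serine palmitoyltransferase subunits in opposite directions. The common subunit Sptlc1 did not pass the test in either genotype, the catalytic subunit Sptlc2 fell in both, and the alternative catalytic subunit Sptlc3 rose in both. Sptlc3 had the largest change of the 10 genes, 2.57-fold in WT and 3.71-fold in D1D2KO.

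**Figure D1:**
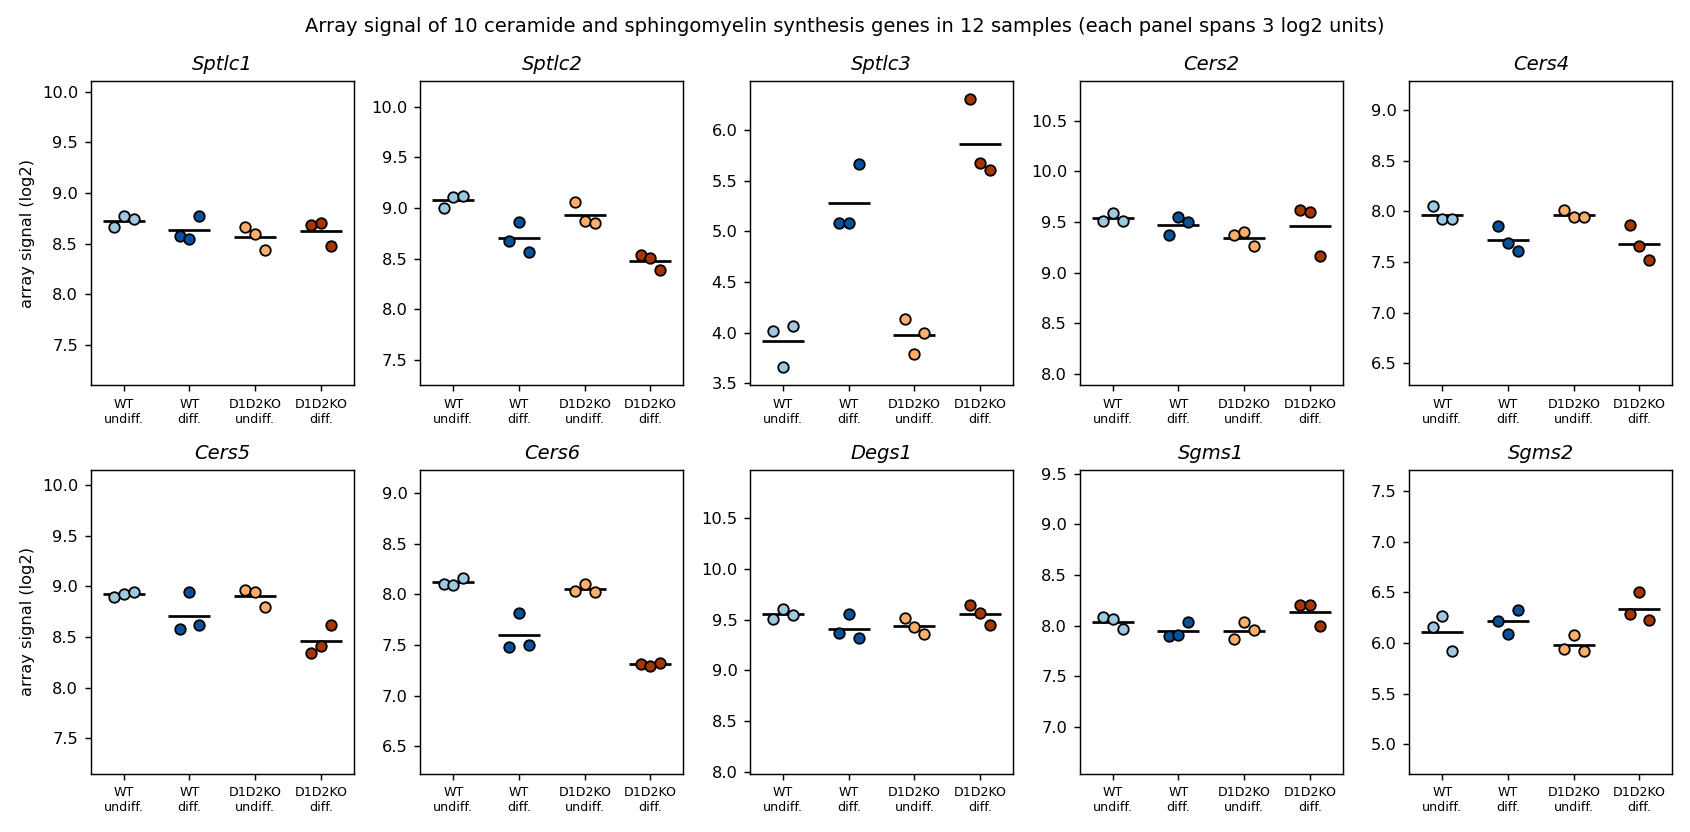
Deposited log2 signal of each of the 10 genes in every sample, by group, with the group mean as a horizontal line; each panel has its own signal axis. Sptlc3 lies between 3.66 and 4.13 in the 6 undifferentiated samples and between 5.08 and 6.30 in the 6 differentiated ones, while Cers6 lies between 8.03 and 8.16 before and between 7.29 and 7.81 after differentiation.

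The Sptlc3 signal was 4.02, 3.66 and 4.06 in WT undifferentiated samples and 5.08, 5.09 and 5.67 in WT differentiated samples. In D1D2KO cells it was 4.13, 3.79 and 3.99 before and 6.30, 5.68 and 5.61 after differentiation. Every differentiated sample was above every undifferentiated one, in both genotypes. The change was 1.36 (SE 0.18, n = 3 per group, limma adjusted p = 1.24e-05) in WT and 1.89 (SE 0.18, adjusted p = 1.87e-07) in D1D2KO. All 6 undifferentiated signals were below the lower quartile of their own array, and none of the 6 differentiated signals was. No detection calls were used, so the fold is a ratio of measured signals and not of RNA amounts.

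Sptlc2 gave 9.0, 9.11 and 9.11 in WT undifferentiated and 8.67, 8.86 and 8.57 in WT differentiated samples. In D1D2KO the signals were 9.06, 8.87 and 8.85 before and 8.53, 8.51 and 8.39 after. The groups did not overlap in either genotype, and the fall was smaller in size than the rise of Sptlc3. Sptlc2 fell by 0.38 in WT (SE 0.09, limma adjusted p = 0.00363), to 77.1% of the undifferentiated signal, and by 0.45 in D1D2KO (adjusted p = 0.000666), to 73.2%. Sptlc1, which pairs with either catalytic subunit, lay between 8.44 and 8.78 over all 12 samples. Its change was -0.09 in WT, with a 95% interval of -0.29 to 0.10, and 0.06 in D1D2KO, with an interval of -0.14 to 0.25.

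Because Sptlc2 and Sptlc3 fill the same position in the enzyme, their ratio was followed within each array, as log2 Sptlc3 minus log2 Sptlc2. Only the change of this difference is read, since its level depends on the probes. It rose by 1.74 in WT and by 2.34 in D1D2KO, a mean of 2.04. An exact two-sided permutation test of the states within each genotype gave p = 0.005, the smallest its 400 arrangements allow, and 0.0075 after adjustment over the 3 enzyme pairs tested. The differentiated and undifferentiated ratios did not overlap in either genotype. Taken as changes within same-numbered pairs of samples, the mean shift had an exact sign-flip p of 0.03125, the smallest that test allows. The ratio restates the changes of both genes given above, and its sample values add only how unequal they were.

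**Figure D2:**
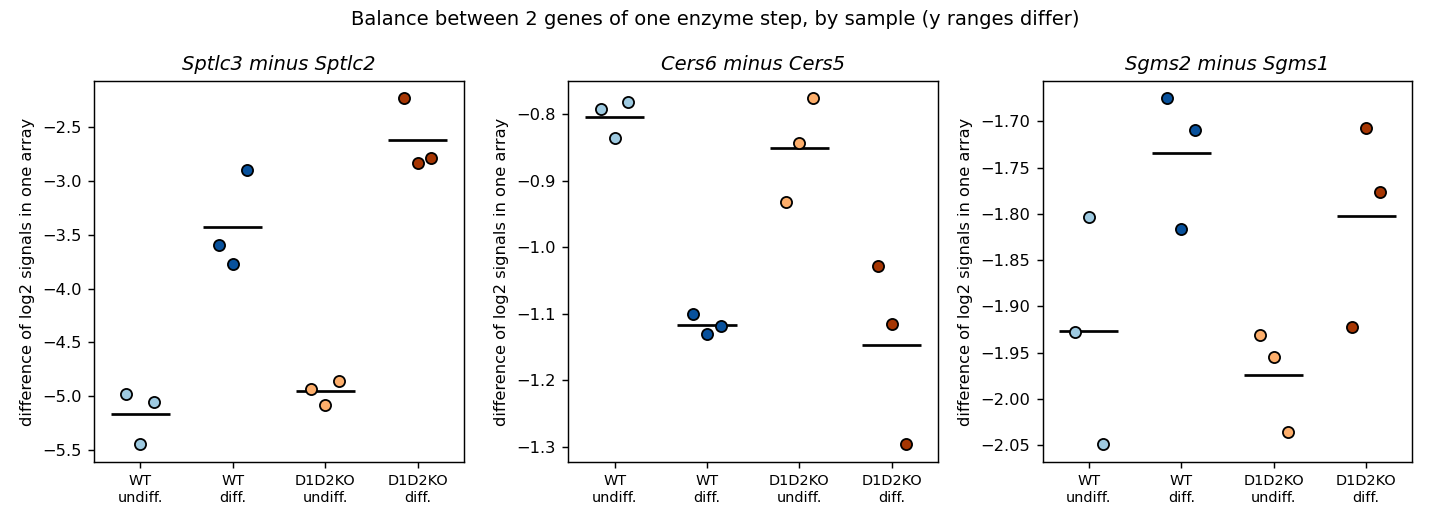
Difference in log2 signal between 2 enzymes of the same step, per array, for Sptlc3 minus Sptlc2, Cers6 minus Cers5 and Sgms2 minus Sgms1, by group, with the group mean as a line. The Sptlc3 difference shifts upward by 2.04 on average with differentiation, the Cers6 difference shifts downward by 0.30, and the Sgms2 difference shifts upward by 0.18 with overlapping WT groups.

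Among the ceramide synthases, Cers6 fell in both genotypes, Cers5 and Cers4 fell in D1D2KO, and Cers2 did not pass the test. Cers5 and Cers6 prefer palmitoyl-CoA, Cers4 uses longer acyl-CoAs, and Cers2, widely expressed, makes very-long-chain ceramides. Cers6 retained 69.6% of its undifferentiated signal in WT and 59.7% in D1D2KO.

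Cers6 signals were 8.10, 8.09 and 8.16 in WT undifferentiated and 7.48, 7.81 and 7.50 in WT differentiated samples. In D1D2KO they were 8.03, 8.11 and 8.03 before and 7.31, 7.29 and 7.33 after. No differentiated sample reached any undifferentiated one, and the highest of the 6 differentiated signals was WT replicate 2. The fall was 0.52 in WT (change -0.52, SE 0.09, limma adjusted p = 0.000153) and 0.74 in D1D2KO (change -0.74, SE 0.09, adjusted p = 2.57e-06).

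Cers5 signals were 8.90, 8.93 and 8.94 in WT undifferentiated and 8.58, 8.94 and 8.62 in WT differentiated samples, where replicate 2 lay within the undifferentiated range. In D1D2KO they were 8.96, 8.95 and 8.80 before and 8.34, 8.41 and 8.62 after, without overlap. Cers5 fell by 0.45 in D1D2KO (SE 0.10, limma adjusted p = 0.00189), to 73.4%. In WT the change was -0.21 (95% interval -0.43 to 0.0047, adjusted p = 0.128), and without WT differentiated replicate 2 it was -0.32 with an adjusted p of 0.0139. Within arrays, log2 Cers6 minus log2 Cers5 fell by 0.31 in WT and by 0.30 in D1D2KO, with no overlap between states in either genotype (exact permutation p = 0.005, the smallest possible, adjusted p = 0.0075 over 3 pairs). By group means, Cers6 thus moved further down than Cers5 in each genotype. The permutation test is of the mean shift over both genotypes, and Cers5 was not called in WT. Within same-numbered pairs of samples, the mean shift of Cers6 minus Cers5 had an exact sign-flip p of 0.03125, the smallest that test allows.

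Cers4 signals were 8.05, 7.92 and 7.92 in WT undifferentiated and 7.86, 7.68 and 7.61 in WT differentiated samples. In D1D2KO they were 8.01, 7.94 and 7.94 before and 7.86, 7.66 and 7.52 after. The groups did not overlap in either genotype, yet the call was made in D1D2KO and not in WT. The change was -0.29 in D1D2KO (SE 0.09, limma adjusted p = 0.0248) and -0.25 in WT (adjusted p = 0.0534). The D1D2KO call ended on leaving out undifferentiated replicate 1 (adjusted p = 0.0851) or replicate 3 (0.0507), or differentiated replicate 2 (0.0665) or replicate 3 (0.118), and the WT change was called (0.0240) without WT differentiated replicate 1. Cers2 lay between 9.16 and 9.62 over all samples. Its change was -0.06 in WT (95% interval -0.29 to 0.16) and 0.11 in D1D2KO (-0.11 to 0.34), and the D1D2KO signals after differentiation were 9.62, 9.60 and 9.16. Without replicate 3, the low one of these, the D1D2KO change was 0.26 with an adjusted p of 0.0241.

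At the last steps, the sphingomyelin synthase gene Sgms2 rose in D1D2KO, while Degs1 and Sgms1 did not pass the test in either genotype. Degs1 encodes the dihydroceramide desaturase, Sgms1 the synthase of the Golgi and Sgms2 the synthase found largely at the plasma membrane. Sgms2 signals were 5.94, 6.08 and 5.92 in D1D2KO undifferentiated and 6.29, 6.50 and 6.23 in D1D2KO differentiated samples, without overlap. In WT they were 6.16, 6.26 and 5.92 before and 6.22, 6.09 and 6.33 after, with overlap. The change was 0.36 in D1D2KO (SE 0.10, 1.28-fold, limma adjusted p = 0.0105) and 0.10 in WT (95% interval -0.12 to 0.32). Without D1D2KO differentiated replicate 2, the highest sample, the D1D2KO change was 0.28 with an adjusted p of 0.0661.

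Sgms1 lay between 7.87 and 8.21 over all 12 samples. Its change was -0.09 in WT (95% interval -0.27 to 0.09) and 0.19 in D1D2KO (0.01 to 0.37, limma adjusted p = 0.10), and the latter was 0.26 with an adjusted p of 0.0273 without D1D2KO differentiated replicate 3. Log2 Sgms2 minus log2 Sgms1 rose by 0.19 in WT and by 0.17 in D1D2KO (exact permutation p = 0.015, also 0.015 after adjustment over 3 pairs), with overlap in WT. Taken as changes within same-numbered pairs of samples (replicate block), the mean of 0.18 had an exact sign-flip p of 0.0938 over 6 pairs. Degs1 lay between 9.32 and 9.64, with a change of -0.14 in WT (95% interval -0.32 to 0.04) and 0.12 in D1D2KO (-0.07 to 0.30).

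Counted together, 1 of the 10 genes rose and 2 fell with differentiation in WT, against 14.7% of all genes rising and 19.4% falling (34.1% called). In D1D2KO 2 rose and 4 fell, against 15.4% and 21.2% of all genes (36.7% called). The share of called genes was near that of the array as a whole in WT, with 3 of 10. In D1D2KO 6 of 10 were called, a count that ran from 4 to 7 under the alternatives. Whether this exceeds the share of the array was not tested, and the 10 genes were chosen with earlier results known. The median change of the 10 was -0.12 in WT and 0.08 in D1D2KO, beside 0.02 and 0.01 for all genes. Dividing-cell genes also fell with differentiation, 3 of 4 in WT and 4 of 4 in D1D2KO, and so did fibroblast and macrophage genes as given above. The part of cell composition in the changes of the synthesis genes was not tested.

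**Figure D3:**
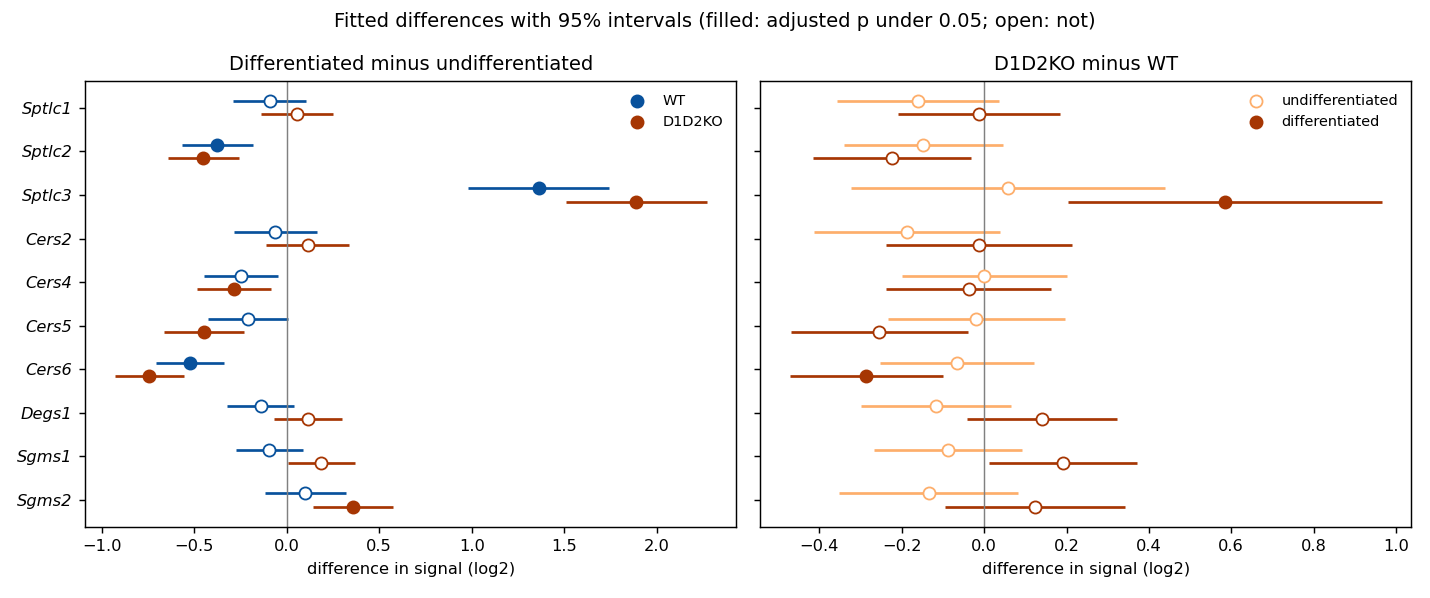
Change in log2 signal of each of the 10 genes in the comparisons of state and genotype, with the 95% interval from limma; filled points passed the adjusted threshold. Sptlc3 stands at 1.36 and 1.89 for differentiation, Cers6 at -0.52 and -0.74, and no gene is called between genotypes before differentiation.

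Before differentiation, none of the 10 genes was called between the genotypes. Changes of D1D2KO against WT lay between -0.19 (Cers2) and 0.06 (Sptlc3), and the median was -0.10, beside 0.02 for all genes. The count of 0 by limma stands against 8.02% of all genes called, and 0 of 10 had an unadjusted p under 0.05. The 95% intervals of the 10 differences ran from -0.41 at the lowest to 0.44 at the highest (Cers2 and Sptlc3), so the size that could have gone uncalled varied with the gene. Cers2 (9.38, 9.40 and 9.27 in D1D2KO against 9.51, 9.58 and 9.51 in WT) was below WT in all samples with adjusted p = 0.260, and Sptlc1 (8.66, 8.60 and 8.44 against 8.66, 8.77 and 8.75) had its nearest samples of the genotypes at the same signal to the digits printed (adjusted p = 0.267).

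After differentiation, Sptlc3 was higher and Cers6 lower in D1D2KO than in WT, each at an adjusted p close to the threshold. Sptlc3 differed by 0.58 (SE 0.18, 1.5-fold, limma adjusted p = 0.0414), with overlap, because WT replicate 3 at 5.67 was above D1D2KO replicate 3 at 5.61. Cers6 differed by -0.29 (SE 0.09, 82.0% of WT, adjusted p = 0.0414), with all 3 D1D2KO signals below all 3 WT signals. These were 1 gene higher and 1 lower of 10, against 6.25% and 7.42% of all genes (13.7% called). The median difference was -0.01, beside 0.03 for all genes.

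Both calls ended when single samples were left out. Sptlc3 was not called without WT differentiated replicate 1 (limma adjusted p = 0.107), WT differentiated replicate 2 (0.161) or D1D2KO differentiated replicate 1 (0.161), the highest sample, when its difference was 0.36. Cers6 was not called without WT differentiated replicate 2 (0.165), when its difference was -0.18, or without D1D2KO differentiated replicate 1 (0.0811), 2 (0.0929) or 3 (0.0735). In the latter fits its difference hardly moved, at -0.29, -0.28 and -0.29. Calls over all genes fell there from 2726 to 1972, 1947 and 1916. Neither was called when only the differentiated samples entered the fit (0.0821 and 0.128) or after quantile normalization (0.0796 and 0.123), and Sptlc3 also not with arrays centred on their medians (0.0553). Of the other 8 genes, Sptlc2 (-0.22, adjusted p = 0.108) and Cers5 (-0.26, adjusted p = 0.101) were nearest the threshold on the lower side and Sgms1 (0.19, adjusted p = 0.135) on the higher side. Sgms1 was called (0.27, adjusted p = 0.0367) after quantile normalization.

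Marker lists differed between the genotypes at the same time. Of 11 adipocyte genes 7 were higher in D1D2KO differentiated cells (median 0.37), 5 of 11 fibroblast and matrix genes were lower (median -0.27), and 5 of 7 muscle genes were lower (median -1.29). Of all genes, 6.25% were higher and 7.42% lower in this comparison. Mean muscle signal ran from 7.51 to 7.53 in D1D2KO differentiated samples, below the WT range of 8.74 to 8.88. Before differentiation 5 of the 7 muscle genes were also lower and 1 was higher, against 8.02% of all genes called in that comparison. Of 4 dividing-cell genes, 3 were lower in each state. Over all genes, 45.7% of the calls between differentiated genotypes were higher in D1D2KO, and 29.5% with arrays centred on their medians. For undifferentiated cells these shares were 54.9% and 32.3%, and 44.0% after quantile normalization. The part of these shifts in the Sptlc3 and Cers6 differences was not tested.

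The response to differentiation itself was compared between genotypes as the D1D2KO change minus the WT change. None of the 10 genes was called by limma, against 1.46% of all genes, and 1 of 10, Sgms1, had an unadjusted p under 0.05. The difference for Sgms1 was 0.28 (95% interval 0.03 to 0.53, unadjusted p = 0.0323, limma adjusted p = 0.371). For Sptlc3 it was 0.53 (-0.01 to 1.07, adjusted p = 0.457), for Cers6 -0.22 (-0.48 to 0.04, adjusted p = 0.564) and for Cers5 -0.24 (-0.54 to 0.07, adjusted p = 0.610). The calls of Cers5, Cers4 and Sgms2 in D1D2KO and not in WT are therefore not shown to be a difference between the genotypes. This comparison uses the same 12 samples as those above and is not separate from them.

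The wider sphingolipid pathway, 73 further genes in 7 lists, had 14 genes higher and 21 lower with differentiation in WT, and 13 higher and 22 lower in D1D2KO. These were 35 of 73 genes called in each genotype, against 34.1% of all genes in WT and 36.7% in D1D2KO. The median change was -0.01 and -0.03, beside 0.02 and 0.01 for all genes. Next to serine palmitoyltransferase stand 7 partners and regulators, of which 1 rose in WT, and 1 rose and 1 fell in D1D2KO. The riser in both was Ormdl3, a membrane protein that restrains the enzyme, with a change of 1.30 in WT (limma adjusted p = 1.70e-09) and 1.00 in D1D2KO (3.16e-08). Cert1, which carries ceramide to the Golgi for sphingomyelin synthesis, fell by 0.36 in WT and by 0.58 in D1D2KO, and 1 of 7 transfer and headgroup genes was called in each genotype. None of the 3 measured relatives of the 10 genes was called in either genotype.

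**Figure D4:**
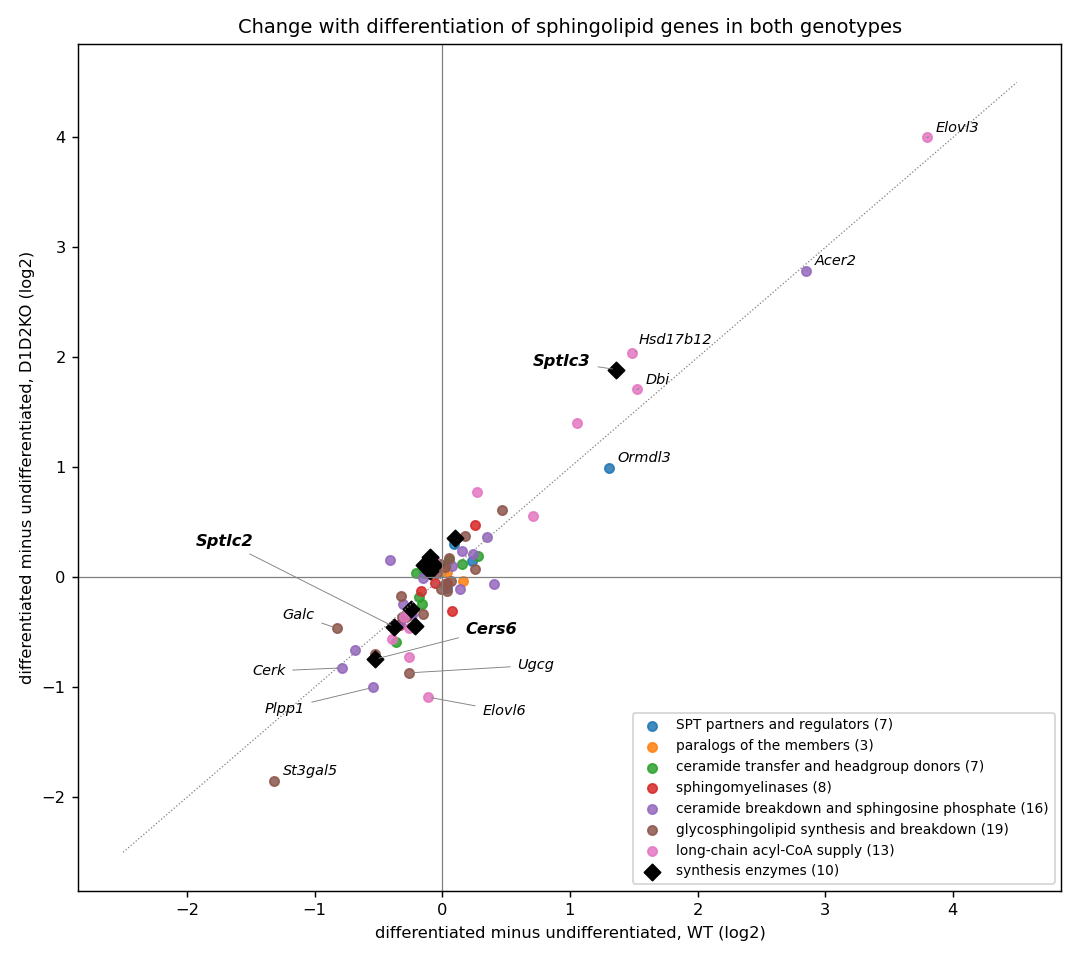
Change in log2 signal with differentiation in WT (x axis) and D1D2KO (y axis) for the 10 synthesis genes (black diamonds) and 73 further sphingolipid genes coloured by list, with the line of equal change dotted. Sptlc3 lies in the upper right, as do Ormdl3, Acer2, Elovl3, Hsd17b12 and Dbi, and Sptlc2 and Cers6 lie in the lower left.

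The remaining lists of the pathway each held genes moving in both directions. They are to be read against the same shares of all genes, 34.1% called in WT and 36.7% in D1D2KO. Of 16 genes of ceramide breakdown and sphingosine phosphate, 4 rose and 7 fell in WT and 3 rose and 5 fell in D1D2KO, led by the ceramidase Acer2 with changes of 2.85 and 2.79 (1.71 and 1.54 as the mean of its probe sets). Of 19 glycosphingolipid genes, 2 rose and 7 fell in each genotype, and St3gal5, the synthase of ganglioside GM3, fell by 1.32 and 1.85. Of 13 genes for long-chain acyl-CoA supply, 6 rose and 5 fell in WT and 6 rose and 6 fell in D1D2KO. Of 8 sphingomyelinase genes, 1 rose and 1 fell in WT, and 1 rose and 2 fell in D1D2KO. In WT these counts of calls were lower without single samples: 7 rather than 11 for ceramide breakdown without undifferentiated replicate 2 or differentiated replicate 1, 5 rather than 9 for glycosphingolipids without undifferentiated replicate 1, and 7 rather than 11 for acyl-CoA supply without undifferentiated replicate 2 or 3.

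Between the genotypes, 3 of the 73 genes were higher and 3 lower in D1D2KO before differentiation, and 5 were higher and 8 lower after it. The 6 genes called before differentiation stand against 8.02% of all genes, and the 13 after it against 13.7%. All 6 calls before differentiation (Ormdl3, Acer1, Smpd4, Gal3st1, Hacd1 and Elovl6) ended without WT undifferentiated replicate 1 (limma adjusted p from 0.051 to 0.142) and without D1D2KO undifferentiated replicate 3 (0.0578 to 0.18). After differentiation the largest were Elovl6, which elongates palmitate (difference -1.32, limma adjusted p = 4.01e-08), and Ugcg, which glucosylates ceramide and so competes with Sgms1 and Sgms2 for it (-0.79, adjusted p = 1.07e-05). Neither call ended under an alternative tried. In the same samples Cers6, which draws on palmitoyl-CoA, differed by -0.29, a call that ended under 7 alternatives. Sgms1 and Sgms2 differed by 0.19 and 0.12 without a call. Any link between these differences was not tested.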

How the data were processed

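The authors deposited 1 table of log2 signals per probe set for 12 samples, with 35556 probe sets and values from 1.15 to 14.17. The base is inferred from that range, and the summarisation and normalization of the scans are not given in the sources used here. Array medians lay between 5.61 and 5.69, and samples of a group correlated at 0.993 to 0.997. Probe sets were named through the platform annotation: 21789 had 1 gene, 1621 several and 12146 none. The brightest single-gene probe set stood for each of 19938 genes, and no filter on low signal was applied.

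Groups came from the sample titles. limma 3.58.1 in R 4.3.3 fitted the 4 group means over all 12 samples (lmFit, eBayes), with two-sided p-values adjusted by Benjamini-Hochberg over all genes and calls at 0.05. Ratios of enzyme pairs were tested by exact permutation of states within genotype. All 10 synthesis genes were named, and from each further list up to 3 called genes with the largest change. The members and lists were chosen with earlier results of these data known.

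Replicate numbers are shared between groups. Same-numbered samples deviated together in D1D2KO (correlations 0.101 to 0.176 between states, against -0.147 to 0.0522 for unequal numbers), which comes from the data and not from the labels. The main fit and the permutation test did not use this pairing, which entered only through the replicate block and the sign-flip test. In each other comparison some same-numbered pair correlated no higher than unequal ones, and these comparisons were not taken as paired. Between undifferentiated genotypes this was number 1 (-0.0146), while numbers 2 and 3 gave 0.184 and 0.141, against -0.189 to 0.0424 for unequal numbers. Alternatives were centring, quantile normalization, a signal filter, mean probe sets, only the groups compared, another variance prior, the replicate block and leaving out each sample. Promoter windows came from RefSeq (GRCm38.p6) and were searched on both strands with Python 3.11.15.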

Additional observations from a re-analysis of the deposited data

Results flagged for a closer look

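In 3 of 73 genes of the wider pathway the change with differentiation differed between the genotypes by limma's interaction test (D1D2KO change minus WT change), and none of the 10 synthesis genes was called, against 1.46% of all genes. Ugcg, which adds glucose to ceramide, had a difference of -0.61 (SE 0.12, adjusted p = 0.0132). Its signals were 8.77, 8.67 and 8.70 in WT undifferentiated, 8.55, 8.45 and 8.35 in WT differentiated, 8.55, 8.61 and 8.43 in D1D2KO undifferentiated and 7.71, 7.69 and 7.58 in D1D2KO differentiated samples. The 3 D1D2KO differentiated samples were below all 9 others.

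Elovl6, which elongates palmitoyl-CoA, had a difference of -0.98 (SE 0.12, limma adjusted p = 0.000501). Its signals were 8.21, 8.32 and 8.22 in WT undifferentiated, 8.25, 8.01 and 8.16 in WT differentiated, 7.94, 7.97 and 7.82 in D1D2KO undifferentiated and 6.85, 6.75 and 6.87 in D1D2KO differentiated samples. St3gal5, the GM3 synthase, had a difference of -0.53 (SE 0.13, limma adjusted p = 0.0484), and the D1D2KO differentiated signals of 7.07, 6.89 and 7.06 were below the WT ones of 7.49, 7.72 and 7.58. The Ugcg and Elovl6 calls held under every alternative run, while the St3gal5 call ended under 10 alternatives, 9 of them with a sample left out (adjusted p 0.0591 to 0.140). No explanation was tested.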

How the results depend on the processing

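The counts of called synthesis genes stayed within 1.5 times of their value under every alternative run for differentiation in WT (3 to 4 genes) and in D1D2KO (4 to 7), and were 0 under all for undifferentiated genotypes and for the difference in response. Between differentiated genotypes the count of 2 became 1 with arrays centred on their medians, after quantile normalization, with genes above the median signal only (which drops Sptlc3) and with the replicate block, 0 with only the groups compared, and 0 to 2 without 1 sample. The changes of sign were all of uncalled values. With centring, Cers4 between undifferentiated genotypes was -0.041. After quantile normalization Sptlc3 was -0.0071, Cers5 0.079 and Cers6 0.024 between undifferentiated genotypes, and Sptlc1 0.069, Cers2 0.039 and Cers4 0.051 between differentiated ones. Without 1 sample, values between undifferentiated genotypes ran from -0.068 to 0.15 for Sptlc3, -0.023 to 0.0437 for Cers4 and -0.048 to 0.032 for Cers5. Between differentiated genotypes they ran from -0.055 to 0.060 for Sptlc1, -0.092 to 0.14 for Cers2 and -0.13 to 0.0439 for Cers4. For the D1D2KO change of Sptlc1 they ran from -0.0094 to 0.13, and for the difference in response from -0.14 to 0.0024 for Sptlc2 and -0.13 to 0.0438 for Cers4. The cause was not tested.

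With the replicate block, the shift of Sgms2 against Sgms1 stayed at 0.18 with p = 0.0938 by an exact sign-flip test over the 6 pairs. The block ended the call of Cers6 between differentiated genotypes (limma adjusted p = 0.0612) and made one for Cers4 in WT (0.0333), and it changed no other call of a synthesis gene. Cers4 in WT was also called with genes above the median signal (0.0270) and with the other variance prior (0.0355), and Sgms1 in D1D2KO after quantile normalization (0.0329) and with genes above the median signal (0.0489). Over all genes, 1600 were called between undifferentiated genotypes, against 838 after quantile normalization, 881 above the median signal, 2597 with only the groups compared and 339 to 1864 without 1 sample. Between differentiated genotypes 2726 became 1184 with only the groups compared and 1344 without WT differentiated replicate 2. For the difference in response 291 became 537 above the median signal, 450 with the other variance prior and 159 to 449 without 1 sample. Among 48 named pathway results, 14 lost their call under some alternative, and counts of calls in lists moved too: with differentiation in WT they ran from 1 to 3 for the partners of serine palmitoyltransferase, 1 to 2 for transfer genes and 1 to 2 for sphingomyelinases. No scanner files or detection calls were used, so signal over background is unknown.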
